A study of Cucumis sativus with 8 samples.

Results

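The leaf vein of the cucumber CsIVP-RNAi line R5 was compared with that of the wild type (WT) across all 17783 genes of the deposited expression table. CsIVP (Csa6G483450) encodes a basic helix-loop-helix transcription factor of the HEC3 subfamily, and the sample labels call it CsIND. The comparison used 4 of the 8 RNA-seq libraries of the series, namely 2 of R5 vein and 2 of WT vein. The other 4 libraries, from R5 and WT fruit, entered only to estimate the spread between replicates and to test whether a vein change differed from that in fruit. Both genotypes were of 1 inbred line, 1461 in the genotype labels and R1461 in the growth protocol, grown in a greenhouse. R5 carries an RNAi construct against CsIVP. The methods of the study describe an empty-vector control for transformation, but the control libraries used here are labelled as wild type. R5 is a single transgenic line of mild phenotype, the promoter of its construct is not given in the sources used here, and neither is the number of plants in a library. The vein samples were midveins of young expanded leaves and were described as biological replicates. Values are RPM, the reads on a gene scaled to a common total per library, which are not divided by gene length, so levels are compared here between libraries and not between genes. Each pair of values gives replicate 1 and then replicate 2, with R5 before WT.

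The midvein brings together several cell types. Sieve elements of the phloem carry sugars and seal themselves with callose and phloem proteins, lignified xylem vessels carry water, and epidermis, ground tissue and some photosynthetic cells surround them. Basic helix-loop-helix factors bind the E-box, a short motif read as CANNTG, in the promoters of other genes. Plants detect microbes with receptor kinases at the cell surface and with nucleotide-binding resistance proteins inside the cell. Detection leads to calcium entry, a burst of reactive oxygen, MAP kinase signalling, the hormones salicylic acid, jasmonic acid and ethylene, and finally to antimicrobial proteins and wall-strengthening compounds.

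The study used 4 cucumber promoter fragments as gel-shift probes for CsIVP protein, and they are shown because 3 of them come from genes measured below. Each is written 5′ to 3′ with its E-box in capitals.
CsBP: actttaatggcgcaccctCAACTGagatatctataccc
CsYAB5: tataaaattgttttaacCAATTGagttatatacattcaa
CsAUX4: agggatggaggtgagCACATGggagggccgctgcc
CsCCR1: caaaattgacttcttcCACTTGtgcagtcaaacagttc
The probes are 35 to 39 bases long and each holds 1 E-box, with a different pair of middle bases in each of the 4. In the gel shift of the study CsIVP bound the CsBP, CsYAB5 and CsAUX4 probes but not the CsCCR1 probe. In its yeast one-hybrid assay, however, CsIVP bound the E-boxes of all 4, CsCCR1 included. The study also reported positive ChIP-PCR and luciferase assays for the CsBP, CsYAB5 and CsAUX4 promoters. In vein, CsYAB5 (Csa2G006820, a YABBY factor of leaf polarity) was at 57.9 and 47.6 RPM in R5 replicates 1 and 2 and at 113 and 134 RPM in WT replicates 1 and 2. CsBP (Csa2G352430, a KNOTTED1-like homeobox gene) was at 0.488 and 0.316 RPM in R5 versus 2.82 and 1.74 RPM for WT. CsCCR1 (Csa3G717370, cinnamoyl-CoA reductase, the first enzyme committed to lignin monomers) was at 21.3 and 14.8 RPM in R5 compared with 0.332 and 0.386 RPM in the WT libraries. The first and second genes were thus lower in both R5 libraries than in both WT libraries, and CsCCR1 was higher. In that order their log2 fold changes were -1.23 ± 0.17 (SE), -1.60 ± 0.42 and 4.41 ± 0.69. The BP call rested on both WT libraries, since its adjusted p rose from 0.0251 to 0.155 without WT replicate 1 and 0.064 without WT replicate 2. No identifier of the expression table was tied to CsAUX4.

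CsIVP itself could not be followed in this tissue. All 4 vein libraries lacked it, with 0 reads each, a count that allows at most 0.145 to 0.166 RPM (3 reads) in a library. In the fruit libraries it stood between 38.3 and 52.1 RPM in both genotypes, where R5 and WT overlapped. The vein libraries held 18433971 and 18984986 reads on genes in R5 and 18088985 and 20743744 in WT.

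More genes were called up than down in R5 vein, by a margin that depended on the scaling. A gene was called when the limma test on log2(RPM + 0.5) gave a Benjamini-Hochberg adjusted p under 0.05 over the 17778 genes tested and the change was at least 2-fold. By that rule 2494 genes rose, 14.0% of those tested, and 913 fell, 5.14%. Scaling by trimmed means (TMM), which takes less account of the most abundant transcripts, gave 1817 rises (10.2%) and 1486 falls (8.36%), and quantile normalization within vein gave 1675 rises and 1636 falls. The share of calls that were rises was 73.2% on RPM and 55% with TMM, and the median log2 fold change over all genes tested moved from 0.20 to -0.04. All 1817 rises with TMM were also rises on RPM, and all 913 falls on RPM were falls with TMM. The large changes were mostly rises, since 980 rises and 93 falls reached a log2 fold change of 2 in size, and 464 rises and 17 falls reached 3. Of the rises, 70 had at most 3 reads in each WT library. Without WT replicate 1 the counts were 1563 up and 543 down, without WT replicate 2 the falls were 566, and without R5 replicate 2 the falls were 1757. A change in the RNA of a bulk vein sample can come from fewer or more cells of a type or from less or more RNA per cell, and the measurements cannot tell these apart.

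Replicates agreed closely in WT and less well in R5. Across genes the 2 WT vein libraries correlated at r = 0.994 and the 2 R5 vein libraries at r = 0.920, with 80 and 2650 genes respectively more than 2-fold apart between replicates. R5 replicate 1 lay farther from WT (r of 0.819 and 0.830) than R5 replicate 2 did (0.888 and 0.895). Of the 2494 rises 76.3% were higher in R5 replicate 1 than in replicate 2, against 62.8% of all genes tested. Both R5 libraries are shown separately for this reason throughout. Regardless of test, 45.1% of all genes were higher in both R5 libraries than in both WT libraries and 22.1% were lower in both.

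**Figure D1:**
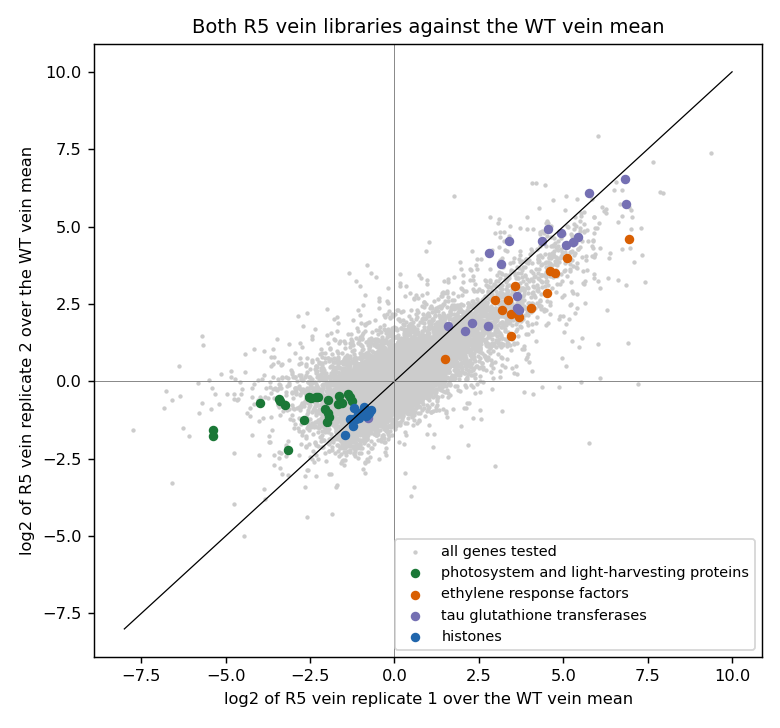
Each point is a gene, with its log2 ratio to the WT vein mean in R5 replicate 1 on the horizontal axis and in R5 replicate 2 on the vertical axis, both on log2(RPM + 0.5), and with the line of equal change. Ethylene response factors and 19 of 20 tau glutathione transferases lie in the upper right, histones in the lower left close to the line, and the 23 photosystem and light-harvesting genes above the line, where replicate 1 was lower than replicate 2.

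The photosynthetic genes were lower in R5, by very different amounts in its 2 libraries. The summed level of 23 genes named as photosystem or light-harvesting proteins, the chlorophyll-binding machinery of green cells, was 2891 and 16824 RPM in R5 versus 32593 and 29799 RPM for WT. All 23 were lower in R5 replicate 1 than in replicate 2, and all 23 were lower in both R5 libraries than in WT. The test called 10 of them down, or 14 with TMM and 9 with edgeR's quasi-likelihood test. LHCII subunit B1 (Csa3G664560) was at 80.6 and 993 RPM in R5 compared with 3637 and 3098 RPM in the WT libraries, so that its 2 R5 values differed by a larger ratio from each other than the second did from WT. Its log2 fold change of -3.56 ± 1.00 had an adjusted p of 0.0319 that rose to 0.143 and 0.114 without the first and the second WT vein library, and to 0.0597 to 0.0623 without any 1 of the fruit libraries, which share in the estimate of the spread. The 50 genes with the most reads in WT vein took 3.81% and 13.3% of the reads in R5 and 18.9% and 17.3% in WT. Whether the amount of green tissue dissected with the vein contributed to the gene changes described below was not tested.

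Gene names came from the tables of the study, which name 2885 of the 17783 genes, 16.2%. Those tables list genes that the study itself called changed in these libraries, so the counts of rises and falls in a named family below describe the family and are no independent evidence of its direction. A family below holds only the members named there, not every cucumber gene of its kind. All 2885 were tested, 58.0% of them were called up and 21.0% down, and each family's count is to be read beside these shares. The 22 Gene Ontology (GO) terms used beside them were annotated over the whole genome without regard to these libraries. The terms to show were, however, picked with earlier results of these data known.

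**Figure D2:**
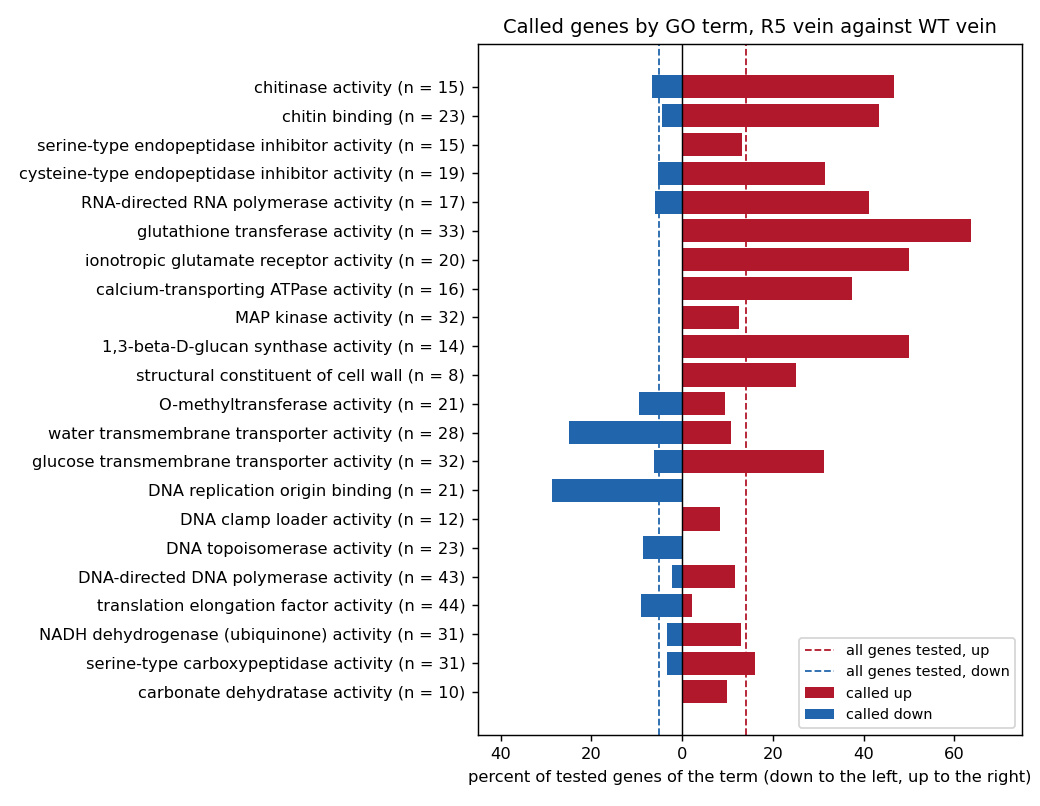
Bars give the percent of the tested genes of each GO term that were called up (right) or down (left) in R5 vein against WT vein, and dashed lines give the percent of all genes tested (14.0 up and 5.14 down). Glutathione transferases reached 63.6% up, and DNA replication origin binding 28.6% and water transport 25% down.

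The largest rise was that of chitinase A (Csa5G139760), an enzyme that cuts the chitin of fungal walls, at 1019 and 252 RPM in R5 versus 1.05 and 1.01 RPM for WT. An acyl activating enzyme (Csa3G002400) was at 594 and 405 RPM against 1.66 and 3.57 RPM, and a LEA hydroxyproline-rich glycoprotein (Csa6G425840) at 63.4 and 237 RPM against 0.221 and 0.82 RPM. In each case the lower R5 library was more than an order of magnitude above the higher WT library. Csa4G354130, an S-adenosylmethionine-dependent methyltransferase, was at 103 and 95.8 RPM against 0.276 and 1.06 RPM, and Csa3G902910, an M20 family peptidase, at 98.6 and 80.0 RPM against 0.498 and 0.723 RPM. The 10 largest rises had log2 fold changes of 6.30 to 8.37 and adjusted p of 0.000189 to 0.00453. They also included 2 tau glutathione transferases, a phenylalanine ammonia-lyase and 2 genes without a name (Csa1G589710 and Csa6G486960).

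The 10 largest falls were smaller than the 10 largest rises. Of the 10, 3 encode proteins of the bifunctional inhibitor and lipid-transfer superfamily, secreted proteins of cell walls and cuticles. Csa3G026150 was at 0.759 and 0.369 RPM in R5 compared with 32.0 and 23.1 RPM in the WT libraries. Csa3G760500 was at 6.13 and 11.1 RPM against 183 and 172 RPM, and their log2 fold changes were -4.73 ± 0.24 and -4.35 ± 0.30. The third, Csa7G372360, was at 2.39 and 56.9 RPM against 200 and 188 RPM, and its adjusted p of 0.0412 rose to 0.161 and 0.141 without the first and the second WT vein library and to 0.0735 to 0.0752 without any 1 fruit library. Polygalacturonase inhibiting protein 1 (Csa4G154320), an inhibitor of fungal pectin-degrading enzymes, was at 45.0 and 12.6 RPM against 290 and 261 RPM, with a log2 fold change of -3.49 ± 0.53 (adjusted p = 0.00389). Hemoglobin 1 (Csa2G238880), a non-symbiotic hemoglobin that scavenges nitric oxide, was at 7.92 and 8.16 RPM against 126 and 112 RPM, and its adjusted p of 0.026 rose to 0.123 without WT replicate 1 and 0.103 without WT replicate 2. A UDP-glycosyltransferase (Csa1G687630) stood at 0.325 and 0.579 RPM against 8.96 and 14.7 RPM, below WT in both R5 libraries.

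**Figure D3:**
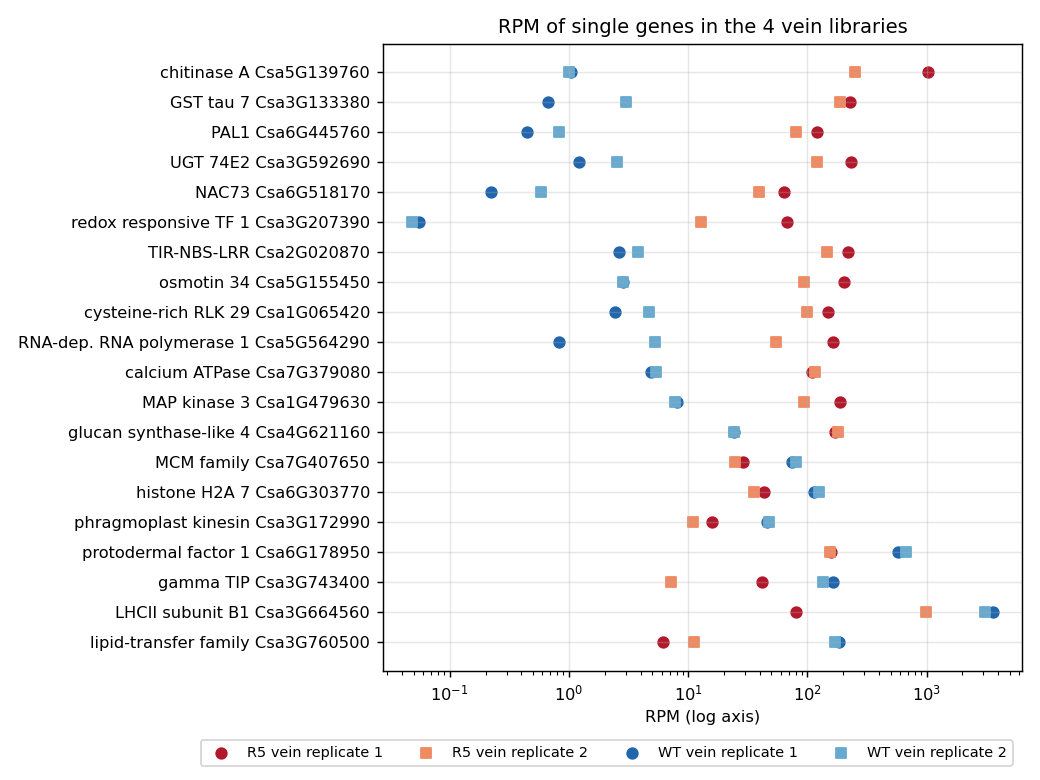
RPM on a log axis of 20 single genes in the 2 R5 vein libraries (red shades) and the 2 WT vein libraries (blue shades). The first 13 genes are higher in both R5 libraries than in both WT libraries and the other 7 are lower in both, with the widest gap between the R5 libraries for LHCII subunit B1.

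Most named genes of pathogen recognition were higher in R5. Of 23 named disease resistance proteins, most of them intracellular receptors of plant immunity, 20 rose (87%) and 1 fell (4.35%). Among all named genes the shares were 58.0% and 21.0%. The family's median log2 fold change of 2.14 is over genes that the study had already called changed. The TIR-NBS-LRR gene Csa2G020870 was at 219 and 147 RPM in R5 versus 2.65 and 3.81 RPM for WT, a log2 fold change of 5.61 ± 0.27 (adjusted p = 0.000189). All 18 named cysteine-rich receptor-like kinases rose, 13 of them without WT replicate 1 and 14 without WT replicate 2, and their summed level was 1820 and 915 RPM in R5 against 136 and 179 RPM in WT. The largest rise among them was that of cysteine-rich RLK 29 (Csa1G065420), at 148 and 100 RPM in R5 compared with 2.43 and 4.68 RPM in the WT libraries. Of 22 named lectin receptor kinases, which carry sugar-binding domains outside the cell, 20 rose and 1 fell, or 18 and 1 with TMM. The rises were led by Csa7G446780 (85.4 and 17.8 RPM against 0.276 and 0.868 RPM), and the fall was Csa3G734030 (34.3 and 33.4 RPM against 68.3 and 68.6 RPM). The latter lies at the threshold, since its log2 fold change was -0.99 without R5 replicate 2, short of 2-fold. Members of these families are often near-identical neighbours, and how reads shared by such copies were assigned could move values between them.

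Genes of the calcium, reactive oxygen and kinase steps that follow recognition were among the rises. Of 20 tested genes of the GO term for ionotropic glutamate receptor activity, cation channels that admit calcium, 10 rose (50%) and the term's median log2 fold change was 0.92. Glutamate receptor 2 (Csa4G628850) was at 26.1 and 41.5 RPM in R5 versus 0.608 and 0.723 RPM for WT. With either WT library left out 6 of the 20 rose. Of 25 named calmodulin-like and EF-hand proteins, the calcium sensors, 24 rose, with 12 rises without WT replicate 1 and 17 without WT replicate 2, and the EF-hand gene Csa1G033260 was at 80.7 and 114 RPM against 2.54 and 1.49 RPM. Of 16 tested genes annotated with calcium-transporting ATPase activity, pumps that remove calcium from the cytosol, 6 rose (37.5%). The P-type ATPase Csa7G379080 was at 110 and 117 RPM in R5 compared with 4.92 and 5.35 RPM in the WT libraries, a log2 fold change of 4.34 ± 0.15 (adjusted p = 0.000148). Calcium ATPase 2 (Csa6G495680) was at 345 and 279 RPM against 50.3 and 51.1 RPM. Of 4 named respiratory burst oxidases, the plasma membrane enzymes that make superoxide, 3 rose, and homologue D (Csa3G845500) was at 288 and 129 RPM against 21.8 and 23.3 RPM. Of 32 genes with MAP kinase activity 4 rose (12.5%), a share near that of all genes. The rises included MAP kinase 3 (Csa1G479630), a kinase of early immune signalling in Arabidopsis, at 188 and 93.1 RPM in R5 versus 8.07 and 7.76 RPM for WT.

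The hormone families held both rises and falls. Of 15 named lipoxygenases, which start jasmonic acid synthesis or make other oxylipins, 8 rose and 2 fell. Lipoxygenase 1 (Csa2G023940) was at 409 and 75.8 RPM in R5 compared with 3.26 and 12.1 RPM in the WT libraries, whereas lipoxygenase 2 (Csa4G286950) was at 3.31 and 7.64 RPM against 21.2 and 24.2 RPM. Neither call held everywhere, since lipoxygenase 1 lost it without WT replicate 1 (adjusted p = 0.0512) and lipoxygenase 2 without WT replicate 2 (adjusted p = 0.0513). Without WT replicate 1 the family had 4 rises and 2 falls. Allene oxide synthase (Csa2G360780), the next enzyme of the pathway, was at 210 and 60.8 RPM against 20.2 and 19.6 RPM, and its adjusted p of 0.0119 rose to 0.0701 and 0.0663 without the first and the second WT library.

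Of 5 genes named as ACC synthases or ethylene-forming enzymes, the last steps of ethylene synthesis, 3 rose and 1 fell, with 1 rise without WT replicate 2. The ethylene-forming enzyme Csa6G421630 was at 620 and 165 RPM in R5 versus 27.3 and 33.4 RPM for WT, and Csa6G511860 under the same name was at 2.71 and 1.42 RPM against 7.3 and 8.24 RPM. Of 14 named ethylene response factors 13 rose, 7 with either WT library left out, and all 14 were higher in R5 replicate 1 than in replicate 2. Their summed level was 1077 and 386 RPM in R5 against 65.7 and 58.2 RPM in WT. Redox responsive transcription factor 1 (Csa3G207390) was at 67.8 and 12.8 RPM in R5, and each WT library held 1 read of it. Over the pooled reads it was 774-fold higher, with an exact 95% interval of 214 to 6399 that covers counting error only, and the test gave an adjusted p of 0.00557.

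Of 8 genes named for abscisic acid enzymes or responses 6 rose, 3 with either WT library left out, and with TMM 4 rose and 2 fell. An ABA-responsive GRAM-domain gene (Csa1G043190) was at 82.8 and 85.5 RPM in R5 compared with 6.14 and 6.32 RPM in the WT libraries, with replicates close in both groups. Methyl esterase 1 (Csa6G490090), which releases active salicylic acid from its methyl ester, was at 66.9 and 33.9 RPM against 7.02 and 7.52 RPM. By contrast, UDP-glycosyltransferase 74 F1 (Csa6G366260), which in Arabidopsis conjugates salicylic acid to glucose, was at 2.93 and 4.37 RPM against 24.8 and 15.3 RPM. These were the largest rise and the only fall among 7 genes named for salicylic acid or NPR1-like proteins, of which 6 rose, 3 without WT replicate 1. Of 8 gibberellin enzymes 3 rose and 2 fell (4 falls with TMM or without R5 replicate 1 and 1 with either WT library left out). Gibberellin 2-oxidase 1 (Csa4G075200), which inactivates the hormone, was at 22.1 and 15.5 RPM in R5 versus 1.71 and 2.84 RPM for WT, while ent-kaurenoic acid hydroxylase 2 (Csa3G903540), which acts in its synthesis, was at 167 and 159 RPM against 789 and 523 RPM.

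**Figure D4:**
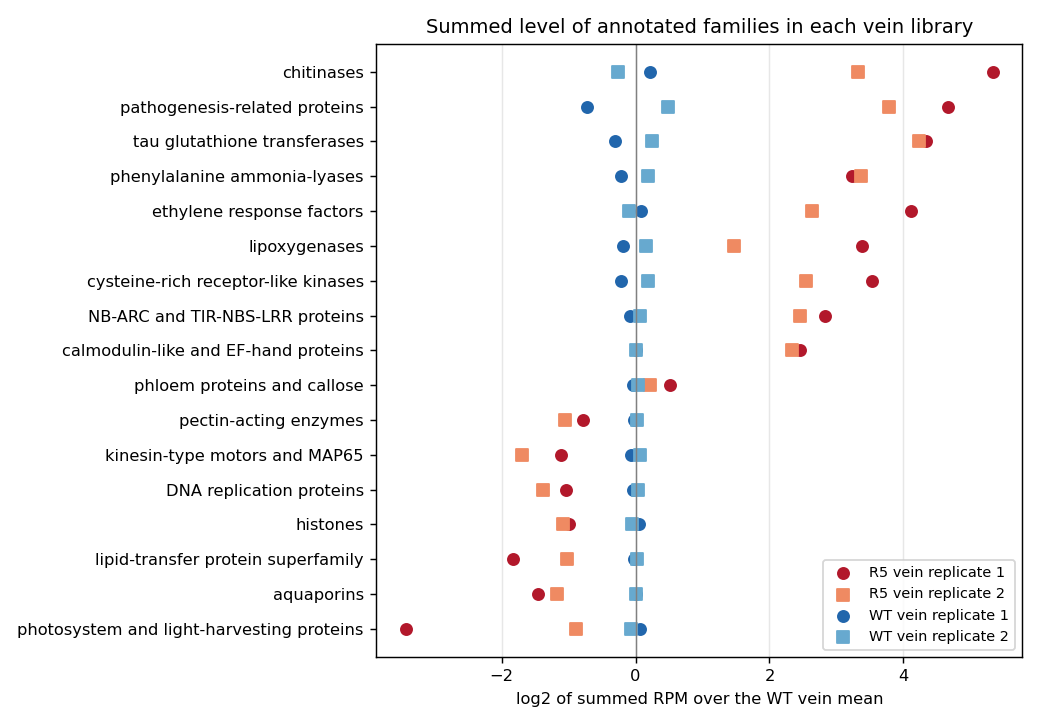
Summed RPM of 17 named families in each vein library as the log2 ratio to the mean of the 2 WT libraries. The families run from chitinases at the top, 40.5-fold and 9.96-fold the WT mean in R5 replicates 1 and 2, to photosystem proteins at the bottom, 0.0927-fold and 0.539-fold.

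Phenylalanine ammonia-lyase, the entry enzyme of phenylpropanoid synthesis, was higher in R5. All 9 genes annotated with this name rose, 8 of them with either WT library left out, and their sum was 328 and 358 RPM in R5 against 29.8 and 39.6 RPM in WT. PAL1 (Csa6G445760), named under another spelling and so not counted in the 9, was at 120 and 79.6 RPM in R5 compared with 0.442 and 0.82 RPM in the WT libraries, with a log2 fold change of 6.46 ± 0.54 (adjusted p = 0.000544). Phenylalanine ammonia-lyase 2 (Csa6G445780), whose identifier lies close by, was at 28.7 and 25.0 RPM against 0.221 and 0.0482 RPM, where WT replicate 2 held 1 read. Caffeoyl-CoA 3-O-methyltransferase (Csa5G589940), which methylates lignin precursors, was at 125 and 144 RPM in R5 against 36.8 and 31.9 RPM. O-methyltransferase 1 (Csa3G046230) went the other way, with 58.4 and 111 RPM against 214 and 253 RPM, and its adjusted p of 0.00767 became 0.0572 without WT replicate 2. Over the 21 tested genes of the GO term for O-methyltransferase activity 2 rose and 2 fell (9.52% each), 1 and 3 with TMM and 0 to 4 falls when 1 vein library was left out, and the median log2 fold change was -0.06.

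Detoxifying transferases had the highest share of rises among the 22 GO terms. Of 33 tested genes with glutathione transferase activity, enzymes that join glutathione to reactive compounds, 21 rose (63.6%) and the median log2 fold change was 2.11. Leaving out any 1 vein library left 20 to 22 rises. The sum over the term was 3028 and 3208 RPM in R5 versus 742 and 825 RPM for WT, so that the R5 libraries were also close to each other. Glutathione S-transferase tau 7 (Csa3G133380) was at 226 and 188 RPM against 0.663 and 2.99 RPM, and tau 8 (Csa4G304250) at 95.9 and 43.3 RPM against 0.0553 and 0.723 RPM. Of 20 named tau class members 19 rose. The UDP-glycosyltransferases, which attach sugars to hormones and secondary compounds, were more mixed with 13 rises and 5 falls among 19. One named after an Arabidopsis enzyme that acts on an auxin (Csa3G592690) was at 233 and 121 RPM in R5 compared with 1.22 and 2.55 RPM in the WT libraries.

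Proteins that act directly on microbes included the largest single rise, chitinase A. Of 15 tested genes with chitinase activity 7 rose (46.7%) and 1 fell. Of 23 with chitin binding 10 rose (43.5%) and 1 fell (2 falls with TMM). In a fit of the 4 vein libraries alone the rises in these terms numbered 5 and 6. The 2 falls were Csa7G064070, which has no name in the tables (5.15 and 4.16 RPM in R5 against 30.3 and 37.6 RPM in WT), and Csa6G396650, a LysM protein of the chitin receptor type (61.0 and 40.5 RPM against 116 and 129 RPM). One of the 7 rises, the lectin receptor kinase Csa7G446780, is not an enzyme of chitin by its name. Pathogenesis-related 4 (Csa2G010390) was at 99.1 and 15.0 RPM in R5 versus 0.276 and 0.289 RPM for WT, and all 4 named pathogenesis-related proteins rose. Osmotin 34 (Csa5G155450), a thaumatin-type protein that permeabilizes fungal membranes, was at 203 and 93.2 RPM against 2.87 and 2.84 RPM. Its family was split, with 3 rises and 2 falls among 8 (3 and 5 with TMM, 1 fall without WT replicate 1), and the thaumatin gene Csa3G828940 was at 10.6 and 9.85 RPM against 24.3 and 27.8 RPM.

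The terms for protease inhibitors differed in their share of rises. Of 15 tested genes with serine protease inhibitor activity 2 rose (13.3%), near the share over all genes, and 1 to 4 did when 1 vein library was left out. Kunitz trypsin inhibitor 1 (Csa2G021000), an antiherbivore protein, was at 87.5 and 8.9 RPM in R5 with 1 read in each WT library (925-fold over pooled reads, exact 95% interval 256 to 7641 for counting error only), and its adjusted p of 0.00796 became 0.0543 and 0.0504 without the first and the second WT library. Of 19 cysteine protease inhibitors 6 rose (31.6%) and 1 fell (5.26%), 3 and 2 with TMM. The fall on RPM, Csa3G748800, was at 97.8 and 130 RPM against 350 and 304 RPM. Without R5 replicate 1 or WT replicate 2 there were 3 rises, and without R5 replicate 2 there were 9. RNA-dependent RNA polymerases copy viral and other RNA in gene silencing, and 7 of the 17 tested genes of that term rose (41.2%). RNA-dependent RNA polymerase 1 (Csa5G564290) was at 163 and 54.7 RPM in R5 compared with 0.829 and 5.25 RPM in the WT libraries. The 1 fall in the term was Csa6G423360, which the tables name protodermal factor 1, a protein known from epidermal cells. Not every gene of the term is thus such a polymerase by its name.

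Most named NAC transcription factors were higher, and the share of rises among named MYB factors was nearer that of all named genes. Of 28 named NAC factors, a plant-specific family, 25 rose (89.3%), and 24 did so with TMM. NAC73 (Csa6G518170) was at 64.2 and 39.1 RPM in R5 versus 0.221 and 0.578 RPM for WT, a log2 fold change of 5.84 ± 0.52 (adjusted p = 0.000657). The 2 NAC83 genes of the vascular table, named after a repressor of xylem vessel formation in Arabidopsis, were at 38 and 35.1 RPM against 6.58 and 6.85 RPM (Csa4G011770) and at 114 and 101 RPM against 36.2 and 38.8 RPM (Csa6G092010). Of 22 named MYB factors 15 rose (68.2%) and 2 fell (9.09%), or 14 and 4 with TMM. Among all named genes 58.0% rose and 21.0% fell. Both MYB116 genes of the vascular table were among the rises, and Csa1G024160 was at 25.7 and 9.48 RPM in R5 compared with 0.0553 and 0.434 RPM in the WT libraries. MYB105 (Csa5G605730), which sets organ boundaries in Arabidopsis, was at 1.46 and 1.11 RPM against 9.78 and 12.7 RPM.

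Several groups of genes for DNA replication held more falls than rises. Of 21 tested genes annotated with DNA replication origin binding 6 fell (28.6%), and the median log2 fold change of the term was -0.45. Leaving out 1 vein library gave 4 to 8 falls. The MCM helicase gene Csa7G407650, part of the complex that unwinds DNA at replication origins, was at 29 and 24.9 RPM in R5 versus 75 and 80.7 RPM for WT. Proliferating cell nuclear antigen 2 (Csa5G198160), the sliding clamp of DNA polymerase, was at 1.03 and 0.737 RPM against 5.42 and 5.35 RPM. Of 11 named replication proteins 10 fell. Of 17 named histones 9 fell on RPM and all 17 with TMM, and all 17 were lower in both R5 libraries than in both WT libraries. Their sum was 1802 and 1690 RPM in R5 against 3707 and 3446 RPM in WT. Histone H2A 7 (Csa6G303770) was at 43.6 and 36.0 RPM against 114 and 126 RPM, a log2 fold change of -1.58 ± 0.20 (adjusted p = 0.00215).

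Genes of the mitotic apparatus were mostly lower too. Of 16 named kinesin motors and MAP65 proteins, which move and bundle spindle and phragmoplast microtubules, 13 fell, and 7 to 16 did when 1 vein library was left out. The phragmoplast-associated kinesin Csa3G172990 was at 15.9 and 11.0 RPM in R5 compared with 45.5 and 47.3 RPM in the WT libraries. Of 26 genes named for cyclins, cyclin-dependent kinases or their inhibitors 16 fell and 4 rose. The 16 falls became 7 without WT replicate 1, 8 without WT replicate 2 and 10 without R5 replicate 2. The rises were led by the cyclin-dependent kinase inhibitor Csa7G073750, a type of protein that holds the cell cycle back, at 21.2 and 24.3 RPM against 6.08 and 6.32 RPM. Other steps of DNA metabolism gave other counts. Of 23 genes with DNA topoisomerase activity 2 fell (8.7%). Of 43 genes with DNA polymerase activity 5 rose and 1 fell (2 and 3 with TMM, and 3 to 8 rises and 1 or 2 falls when 1 vein library was left out), and of 12 with clamp loader activity 1 rose (1 to 4). The largest rises in these terms were genes that the tables name otherwise, namely calcium ATPase 2 in the former and the P-loop nucleoside triphosphate hydrolase Csa6G504490 (213 and 147 RPM against 4.15 and 12.0 RPM) in the latter.

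**Figure D5:**
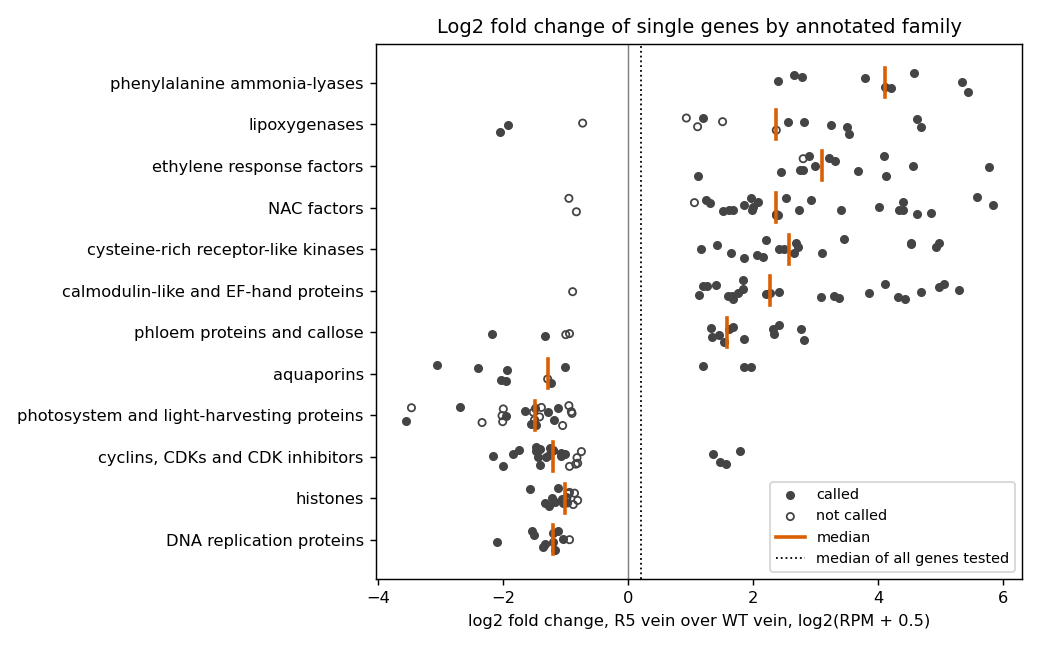
Log2 fold changes of single genes in 12 named families, with filled circles for called genes, open circles for others, orange bars for family medians and a dotted line for the median of all genes tested (0.20). Defence families spread over a wide range of rises, and histone genes are packed between -1.58 and -0.81. Family members come from genes that the study called changed, so the dotted line is no like reference for their medians.

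Genes of cell growth and the wall moved in both directions. Expansin A1 (Csa1G009820), which loosens the wall during growth, was at 10.1 and 9.69 RPM in R5 versus 33.5 and 37.2 RPM for WT, and expansin 12 (Csa3G104900) was at 12.5 and 5.06 RPM against 0.276 and 0.0964 RPM. Of 8 named expansins 3 rose and 2 fell, or 3 and 3 with TMM. Of 29 genes named for pectin-acting enzymes or their inhibitors 8 rose and 15 fell, with 4 and 10 without WT replicate 1 and 4 and 8 without WT replicate 2, and pectin methylesterase 3 (Csa7G343850), which removes methyl groups from pectin, led the rises at 164 and 47.0 RPM against 1.82 and 1.98 RPM. Extensin 3 (Csa7G312940), a structural wall glycoprotein, was at 590 and 43.0 RPM in R5 compared with 3.48 and 5.93 RPM in the WT libraries. Its adjusted p of 0.0191 became 0.11 and 0.0739 without the first and the second WT library, and R5 replicate 1 carried most of the difference. The 2 cellulose synthase-like B3 genes, Csa2G416170 (114 and 142 RPM against 15.8 and 17.0 RPM) and Csa2G416190 (131 and 146 RPM against 10 and 13.2 RPM), have close identifiers and may share reads.

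More water channels fell than rose. Of 28 tested genes with water transport activity 7 fell (25%) and 3 rose (10.7%), 10 and 2 with TMM, and 4 fell and 1 rose with either WT library left out. Without R5 replicate 2 there were 13 falls, and without R5 replicate 1 there were 5 rises. The gamma tonoplast intrinsic protein Csa3G743400, a vacuolar water channel, was at 41.3 and 7.22 RPM in R5 versus 165 and 135 RPM for WT, and NOD26-like protein 4;2 (Csa3G826650) was at 250 and 86.0 RPM against 33.3 and 42.0 RPM. The first had an adjusted p of 0.0152 that became 0.0929 and 0.0675, and the second one of 0.0172 that became 0.107 and 0.0662, without the first and the second WT library. Protodermal factor 1 (Csa6G178950), a proline-rich protein made in epidermal cells, was at 157 and 155 RPM against 577 and 671 RPM, a log2 fold change of -1.99 ± 0.14 (adjusted p = 0.000392). Of 4 named epidermal genes 2 rose and 2 fell (1 and 2 with TMM). Their sum was 357 and 329 RPM in R5 compared with 1016 and 1139 RPM in the WT libraries, and ANL2 (Csa3G180430), a homeodomain factor of the epidermis, was among the rises at 13.2 and 34 RPM against 2.87 and 1.93 RPM. Of 32 sugar carriers in the GO term for glucose transport 10 rose (31.2%) and 2 fell, with 0 to 5 falls when 1 vein library was left out. The 2 genes with close identifiers under the name polyol/monosaccharide transporter 5 had opposite changes, Csa7G253800 at 33.4 and 17.7 RPM in R5 against 0.442 and 1.78 RPM, and Csa7G253820 at 7.97 and 7.9 RPM against 39.4 and 33.5 RPM. The adjusted p of the latter, 0.0184, became 0.107 and 0.0768 without the first and the second WT library.

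Of the 38 genes in the vascular table of the study 22 rose (57.9%) and 9 fell (23.7%), or 22 and 13 with TMM. The shares on RPM were near those of all named genes, 58.0% up and 21.0% down. Callose, the glucan that plugs sieve pores and plasmodesmata, is made by glucan synthases, and 7 of 14 tested genes with that activity rose (50%), 5 with TMM and 3 without WT replicate 1. Glucan synthase-like 4 (Csa4G621160) was at 170 and 180 RPM in R5 versus 24.5 and 24.1 RPM for WT, a log2 fold change of 2.82 ± 0.11 (adjusted p = 0.000189). Callose synthase 1 (Csa7G429550) was at 455 and 220 RPM against 54.5 and 63.0 RPM, and callose synthase 5 (Csa2G302250) at 16.5 and 10.9 RPM against 4.26 and 4.39 RPM. The 3 genes named plasmodesmata callose-binding protein 3 did not move together, and whether this name belongs to each identifier was not checked. Csa1G013210 was called, at 84.0 and 86.5 RPM in R5 against 218 and 216 RPM in WT. Csa5G606660 was at 115 and 175 RPM against 258 and 311 RPM. Its change on RPM lay just short of the 2-fold limit (limma adjusted p = 0.0151). With TMM it was called down (log2 fold change -1.26, limma adjusted p = 0.0123). The third, Csa6G366460, which is outside the vascular table and was chosen after its values were seen, rose to 40.3 and 49.5 RPM from 13.8 and 14.6 RPM (adjusted p = 0.0006).

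Of 16 genes named for phloem proteins and callose 12 rose and 2 fell, 12 and 4 with TMM, and without the first and the second WT library there were 7 and 8 rises. Of the 2 SIEVE-ELEMENT-OCCLUSION-RELATED 1 genes, which encode filament proteins of sieve tubes, Csa2G193340 was at 23.5 and 19.5 RPM in R5 compared with 109 and 89.4 RPM in the WT libraries. The other, Csa1G002870, was at 12.0 and 21.5 RPM against 5.58 and 5.59 RPM, and its adjusted p of 0.00664 reached the limit of 0.05 without WT replicate 1, where the call was lost. Phloem protein 2-A9 (Csa1G708660), a lectin of phloem sap, was at 29.1 and 33.1 RPM against 12.9 and 11.3 RPM. Phloem protein 2-B12 (Csa3G132020) was at 8.46 and 3.95 RPM against 0.885 and 0.627 RPM and kept its call under every alternative run. The other members of this lectin family, 2-A14 (Csa5G173520) at 37.4 and 11.5 RPM against 3.15 and 4.48 RPM and 2-B15 (Csa2G032230) at 5.97 and 2.11 RPM against 0.442 and 0.868 RPM, lost theirs with either WT library left out. Their adjusted p of 0.0215 and 0.0298 became 0.123 and 0.163 without WT replicate 1. APL (Csa6G135460, ALTERED PHLOEM DEVELOPMENT) was at 27.5 and 39.9 RPM against 9.34 and 10.7 RPM. The 4 lectins and APL thus rose while the SIEVE-ELEMENT-OCCLUSION-RELATED 1 genes went opposite ways. Xylem markers were likewise split. Laccase 3 (Csa1G533470), an oxidase that polymerizes lignin, was at 0.217 and 0.316 RPM in R5 versus 1.71 and 2.07 RPM for WT. Laccase 11 (Csa4G046770) was at 5.91 and 3.63 RPM against 1.88 and 0.964 RPM, with an adjusted p of 0.0162 that became 0.0992 without WT replicate 2. Laccase 17 (Csa3G734120) was at 5.59 and 1.74 RPM against 10.3 and 8.53 RPM and did not pass the test on RPM (adjusted p = 0.0527). IRX6 (Csa1G015700, IRREGULAR XYLEM 6) did not pass it either, at 6.4 and 3.58 RPM against 8.85 and 8.2 RPM (adjusted p = 0.0745). With TMM both were called down, with log2 fold changes of -1.68 and -1.01 (limma adjusted p = 0.0273 and 0.0218).

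Cinnamoyl-CoA reductase genes other than CsCCR1 also parted. Csa3G716870 was at 4.99 and 6.11 RPM in R5 compared with 0.0553 and 0.145 RPM in the WT libraries, and Csa6G091870 at 32.0 and 20.5 RPM against 99.0 and 69.0 RPM. The first lost its call without WT replicate 1 (adjusted p = 0.0525). Csa3G598910 was at 151 and 13.5 RPM against 5.36 and 3.18 RPM, above WT in both R5 libraries, yet its replicates were too far apart for a call (adjusted p = 0.128). Csa6G362930 (ACL5), a thermospermine synthase that delays xylem cell death in Arabidopsis, was at 71.3 and 16.9 RPM against 13.7 and 15.5 RPM and did not pass the test (adjusted p = 0.141). A COBRA-like gene (Csa4G129050), from a family that orients cellulose, was at 16.1 and 14.6 RPM against 2.16 and 2.27 RPM, a log2 fold change of 2.55 ± 0.15 (adjusted p = 0.000274).

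In the auxin table of the study 13 of 31 genes rose and 14 fell, with a median log2 fold change of -0.78, with 6 and 5 without WT replicate 1, 6 and 4 without WT replicate 2 and 10 and 8 without R5 replicate 1. GH3 enzymes join auxin or jasmonic acid to amino acids, and Csa4G007100 of this family was at 69.1 and 43.8 RPM in R5 versus 8.62 and 7.66 RPM for WT. The 2 genes named only as auxin-responsive family proteins had larger rises, Csa7G041870 from 0.774 and 1.35 RPM to 201 and 60.8 RPM and Csa7G033410 from 8.24 and 10.8 RPM to 124 and 112 RPM. The falls included LIKE AUXIN RESISTANT 2 (Csa7G010800), an auxin importer, at 8.84 and 4.16 RPM against 23.3 and 29.9 RPM. SAUR genes are small early targets of auxin. They were found on both sides, with Csa2G258100 at 10.4 and 18.8 RPM in R5 against 48.9 and 56.6 RPM in WT, and Csa6G137590 at 9.22 and 10.5 RPM against 2.38 and 2.75 RPM.

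Several smaller groups were also examined. Of 9 growth-regulating and ovate factors, transcriptional regulators of organ size and shape, 5 fell, 1 with either WT library left out, and all 9 were lower in both R5 libraries than in WT. Their summed level was 32.8 and 33.9 RPM in R5 compared with 80.1 and 81.9 RPM in the WT libraries, so that the summed R5 values were close to each other. Of 20 named pentatricopeptide repeat proteins, which process organelle RNA, 9 fell and 3 rose, with 15 falls with TMM, 2 without WT replicate 1 and 5 without WT replicate 2. Csa1G173140 of this family was at 70.9 and 79.7 RPM in R5 versus 237 and 203 RPM for WT. Of 44 tested genes with translation elongation factor activity 4 fell (9.09%) and 1 rose (2.27%, 3 rises without R5 replicate 2), the latter being Csa5G495950 at 143 and 40 RPM against 5.64 and 8.29 RPM. Serine carboxypeptidases had 5 rises (16.1%) among 31 genes, near the share over all genes (3 rises without WT replicate 1), but serine carboxypeptidase-like 45 (Csa3G823640) was at 330 and 161 RPM against 21.0 and 24.2 RPM. Of 31 genes with NADH dehydrogenase activity 4 rose (12.9%), among them alternative NAD(P)H dehydrogenase 1 (Csa6G517020), a mitochondrial enzyme that bypasses complex I, at 4.67 and 14.3 RPM against 0.719 and 0.241 RPM. Alpha carbonic anhydrase 7 (Csa6G446560), which interconverts carbon dioxide and bicarbonate, was at 13.4 and 16.9 RPM against 3.87 and 2.94 RPM, and it was the 1 rise among 10 such genes (10%), with 2 rises without R5 replicate 1 and 3 falls without R5 replicate 2. All 5 named MLO proteins, a membrane family named after barley mildew susceptibility, were higher in both R5 libraries and passed the test, but 3 did with TMM. The largest rise among them, Csa1G085890, was at 22.6 and 3.69 RPM in R5 against 1.38 and 1.83 RPM in WT. Its limma adjusted p of 0.0469 became 0.0582 with TMM.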

How the data were processed

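RNA-seq libraries from R5 and WT leaf vein and fruit (2 of each) were made with a strand-specific kit. The authors aligned reads with TopHat and counted them with HTSeq (versions not given in the sources used here) on version 2i of the cucumber genome, and deposited 1 table of RPM (reads on a gene scaled to a common total per library) for 17783 genes. Every deposited RPM value was a whole multiple of what 1 read is worth, within 0.05 reads, so all 100% of the values gave back whole reads, and the depths are 18088985 to 22979345 reads on genes.

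Genes with at least 1 RPM in 2 libraries were tested with limma 3.58.1 (R 4.3.3) on log2(RPM + 0.5), which understates the folds of low genes, in one fit with a mean for each of the 4 groups, a trended prior and 4 residual degrees of freedom. An exact permutation test of 2 against 2 libraries cannot give a p below 0.333. Alternatives included other pseudocounts, filters and scalings, edgeR 4.0.16 and DESeq2 1.42.0 on the recovered reads, a replicate block and each library left out. The authors' tables also hold fold changes and p-values, which were not used. Gene names came from tables of the study. Of 23999 reference genes, 0 matched an identifier. GO terms were taken from a genome-wide table, for terms with complete rows.

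The single genes named are CsIVP, the genes of the study's vascular, auxin and qRT-PCR lists, the 10 largest rises and falls with a higher-group mean of at least 10 RPM, and the largest rise and fall of each list with at least 5 RPM. Not every one of these genes is described in the text. The comparison, the lists and the members were chosen with earlier results of these data known. A match by spelling, a cycling DOF factor among the cyclins, was left out.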

Additional observations from a re-analysis of the deposited data

Results flagged for a closer look

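The change of each named gene in vein was set against its change in fruit of the same line by an interaction term in the same limma fit, adjusted over all genes tested, and 78 of 165 named genes differed at an adjusted p under 0.05 (0.00803 to 0.0485). Most of these genes were named for a large change in vein, so a larger size in vein than in fruit follows in part from that choice. Values are differences of log2 fold changes, vein minus fruit. No explanation was tested.

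Among 44 genes that rose in vein, the widest gap was that of the LEA glycoprotein Csa6G425840, which rose by 6.98 in vein and had -0.40 in fruit. The difference was 7.38 for Csa6G425840, 6.93 for Csa5G139760, 5.82 for Csa7G343850, 5.31 for Csa3G133380, 4.29 for Csa4G354130, 3.86 for Csa6G445760, 3.86 for Csa4G628850, 3.84 for Csa3G902910, 3.82 for Csa4G304250, 3.73 for Csa3G592690 and 3.50 for Csa7G379080. For the next genes it was 3.44 for Csa2G020870, 3.36 for Csa1G042350, 3.34 for Csa5G155450, 3.26 for Csa6G518170, 3.21 for Csa7G253800, 2.85 for Csa7G066240, 2.84 for Csa3G180430, 2.83 for Csa1G071800, 2.82 for Csa2G416190, 2.81 for Csa1G033260 and 2.60 for Csa1G043190. Smaller differences were 2.55 for Csa1G065420, 2.54 for Csa5G148780, 2.52 for Csa3G823640, 2.44 for Csa7G429550, 2.38 for Csa3G002400, 2.37 for Csa6G490090, 2.33 for Csa4G011770, 2.31 for Csa2G138770, 2.28 for Csa3G845500, 2.19 for Csa4G075200 and 2.19 for Csa4G129050. The remaining rises differed by 2.16 for Csa4G007100, 2.13 for Csa7G033410, 2.03 for Csa7G073750, 1.99 for Csa4G621160, 1.81 for Csa1G002870, 1.81 for Csa6G135460, 1.69 for Csa6G137590, 1.62 for Csa6G446560, 1.52 for Csa5G600390, 1.46 for Csa6G092010 and 1.45 for Csa2G302250.

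Among 34 genes that fell in vein, division genes such as the MCM gene Csa7G407650 (-1.51 in vein and 0.05 in fruit) and histone H2A 7 Csa6G303770 (-1.58 and 0.05) had fruit changes near 0. The difference, now negative, was -4.76 for Csa1G687630, -4.48 for Csa3G026150, -4.08 for Csa3G760500, -3.64 for Csa4G154320, -2.77 for Csa3G903540, -2.69 for Csa1G288020, -2.60 for Csa5G605730, -2.56 for Csa3G046230, -2.55 for Csa7G064070, -2.55 for Csa5G160210, -2.54 for Csa2G011420 and -2.44 for Csa6G366260. It was -2.19 for Csa2G193340, -2.07 for Csa6G178950, -1.97 for Csa5G198160, -1.85 for Csa3G172990, -1.77 for Csa7G041990, -1.71 for Csa1G533470, -1.68 for Csa1G009820, -1.67 for Csa3G690290, -1.63 for Csa6G303770, -1.57 for Csa7G407650, -1.56 for Csa2G258100 and -1.54 for Csa3G748800. The smallest differences in size were -1.40 for Csa2G170820, -1.39 for Csa3G781550, -1.37 for Csa6G396650, -1.30 for Csa6G106780, -1.29 for Csa2G006820, -1.26 for Csa3G734030, -1.25 for Csa6G423360, -1.25 for Csa1G173140, -1.23 for Csa1G013210 and -0.90 for Csa3G828940.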

How the results depend on the processing

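Against 2494 rises and 913 falls, falls numbered 1486 with TMM factors, 1636 (beside 1675 rises) with quantile normalization within vein, 1460 with edgeR's quasi-likelihood test, 1630 with edgeR's exact test, 1756 with DESeq2 and 492 in a fit of the vein libraries alone. Without the 2-fold requirement there were 4684 rises and 1814 falls. Leaving out 1 library gave 1563 to 3285 rises and 543 to 1757 falls, and the cause was not tested. The other alternatives stayed within 1.5 times of both counts. Among the 165 named genes none changed direction under an alternative run, and of the 153 called, 97 kept the call under every alternative with the same thresholds and 101 with each library left out. The vein replicate numbers do not pair the libraries (same-number correlation -0.112). With the replicate block 2378 genes rose and 867 fell, and with the numbers crossed, an alternative chosen after seeing the data, 2461 and 948. With 2 libraries per group, the p-values rest on a single spread per gene, pooled over the R5 and WT vein and fruit libraries. They cover only these few samples of 1 line. A group with 1 library left out adds nothing to the pooled spread, so counts from such fits rest on the spread of the remaining groups. In vein 2650 genes were over 2-fold apart between the R5 replicates and 80 between the WT replicates, so the pooled spread can understate that of R5 vein. Library quality weights, which count noisier libraries less, were 0.198 for R5 vein and 1.24 to 2.08 for the other groups. With these weights 29 of the 153 named calls were lost, and 41 were lost in the fit of the vein libraries alone. Depth limits low genes, since 3 reads are worth 0.145 to 0.166 RPM in vein.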
